A study of Mus musculus with 12 samples.

Results

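The mitosis genes are 37 named genes of late G2 phase and mitosis, given as a list of gene names, with no measured value in the rule. All 37 were found in both deposited tables, among 16232 genes measured in vivo and 24421 genes measured in vitro. The tables came from polyA RNA of mouse Treg (regulatory T cells, the CD4+ T cells that hold immune responses in check) of spleen and lymph nodes, sequenced in 12 libraries that fall into 6 groups of 2. The groups were wild type (WT) and Kdm2b conditional knockout (cKO) Treg in vivo, WT and cKO Treg kept unstimulated in vitro, and WT and cKO Treg stimulated in vitro. Kdm2b encodes a histone demethylase and CpG-island-binding partner of a Polycomb complex. The sources used here do not give the Cre driver of the knockout, the stimulus and its duration, the age of the mice or whether animals were pooled, and the labels do not say whether the 2 libraries of a group came from separate animals. The p-values below therefore measure only the spread between these libraries, which may be technical.

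A dividing cell enters mitosis when Cdk1 bound to cyclin A or cyclin B is activated, and leaves it when the anaphase-promoting complex (APC/C) with Cdc20 has cyclin B and securin degraded. In between, kinetochores attach chromosomes to spindle microtubules under the spindle checkpoint, and the midzone and contractile ring then divide the cell. Most of these genes are transcribed in G2 and M phase only, held down in resting cells by the DREAM complex and switched on by B-MYB and FOXM1, so their summed RNA in a bulk sample is widely used as a readout of how many cells are cycling. In bulk RNA, fewer dividing cells and less RNA per dividing cell cannot be told apart. By role the 37 fall into Cdk1 and its cyclins (4 genes), other mitotic kinases (4), genes of mitotic chromosomes (4), kinetochore genes (7), spindle checkpoint genes (4), APC/C partners (2), spindle genes (5), and genes of the midzone and cytokinesis (7).

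What the members share beyond their function can be read from their promoters. RefSeq promoter windows of the GRCm38.p6 build, running from 250 bases before to 50 bases after the annotated start, were matched for 32 of the 37 genes; Tpx2, Ccna2, Spc24, Aurkb and Kif20a had no entry. 3 kinds of short motif were searched on both strands. The CHR element, to which DREAM and B-MYB complexes bind, was searched as TTTGAA and also, in a variant form, as TTCGAA. The CCAAT box, the site of NF-Y, was searched by the letters of its name. E2F-like sites were searched as TTTGGCG and in 3 related forms: the first of these was TTTCCCG, the next one was TTTCGCG and the last one was TTTGCCG. No letters of one motif are held within another. A CHR match lay in 24 of the 32 members (75%) against 21.7% of the 27025 genes with a window, and a CCAAT box in 23 (71.9%) against 41.1%. Both were present in 21 members (65.6%), against 9.65% of all genes. E2F-like letters were found in 6 members (18.8%), against 7.65% of all genes. Per window rather than per gene, 19.2% of all 32851 windows held a CHR match, 37.4% a CCAAT box, 7.52% both and 6.7% E2F-like letters. The median CHR match began 10 bases before the start and the median CCAAT box 71 bases before it. For comparison, of 31 DNA replication genes with a window 6 held a CHR match, 18 a CCAAT box and 18 E2F-like letters. The members without CHR letters were Birc5, Ccnb1, Cenpe, Mad2l1, Melk, Ncaph, Nuf2 and Nusap1, and Mad2l1 and Nuf2 had none of the 3 motifs in this window. A match is a description of the letters and not a bound site.

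The following stretches upstream of the start show the layout of these motifs in members on which the results below turn, with motif letters in capitals and each sequence read 5′ to 3′ on the strand of its gene. They are from RefSeq, build GRCm38.p6, and were ended before any GENCODE exon. Mki67 (chr7:135716380-135716529, minus strand) and Top2a (chr11:99024190-99024339, minus strand) have 2 or more CHR matches beside CCAAT boxes. In Racgap1 (chr15:99651657-99651806, minus strand) a CCAAT box lies 12 bases before the start, and its CHR letters begin at base 6 after the start, outside the stretch.
Mki67: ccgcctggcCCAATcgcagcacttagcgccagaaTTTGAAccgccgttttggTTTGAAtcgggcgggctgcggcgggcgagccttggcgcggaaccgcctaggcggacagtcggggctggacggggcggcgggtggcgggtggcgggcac
Top2a: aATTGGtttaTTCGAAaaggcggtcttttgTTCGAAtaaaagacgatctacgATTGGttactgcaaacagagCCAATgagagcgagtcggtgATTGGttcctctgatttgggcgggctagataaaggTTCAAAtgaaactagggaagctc
Racgap1: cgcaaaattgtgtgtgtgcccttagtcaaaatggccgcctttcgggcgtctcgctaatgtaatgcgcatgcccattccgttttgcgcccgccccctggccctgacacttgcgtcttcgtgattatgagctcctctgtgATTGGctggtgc
Cdc20 (chr4:118437353-118437502, minus strand) and Cdk1 (chr10:69352939-69353088, minus strand) show the compact pairing of CCAAT box and CHR, and Cdk1 has in addition an E2F-like match. Each has 1 more match in the bases left out before the start, a CCAAT box in Cdc20 and a CHR in Cdk1. Birc5 (chr11:117849087-117849236, plus strand) is shown as the contrasting layout, with E2F-like letters only.
Cdc20: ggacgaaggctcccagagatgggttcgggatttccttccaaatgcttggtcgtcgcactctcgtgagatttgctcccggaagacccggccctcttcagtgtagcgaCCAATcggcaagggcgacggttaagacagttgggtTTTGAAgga
Cdk1: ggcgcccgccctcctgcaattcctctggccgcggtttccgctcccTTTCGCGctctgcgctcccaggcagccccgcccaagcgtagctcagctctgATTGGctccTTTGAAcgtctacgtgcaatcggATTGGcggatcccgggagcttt
Birc5: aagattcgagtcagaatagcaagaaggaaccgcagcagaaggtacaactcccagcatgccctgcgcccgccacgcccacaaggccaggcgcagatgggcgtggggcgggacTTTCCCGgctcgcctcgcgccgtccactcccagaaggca

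**Figure D1:**
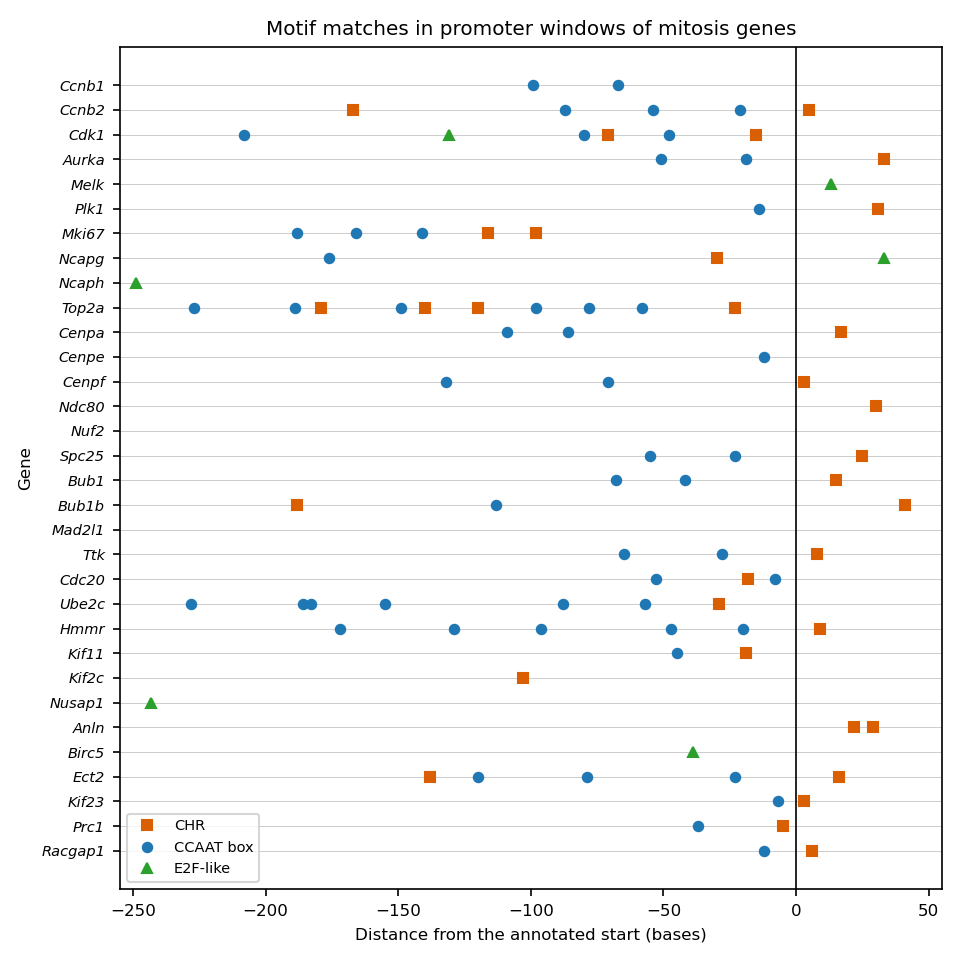
Positions of CHR (squares), CCAAT box (circles) and E2F-like (triangles) matches in the promoter windows of the 32 mitosis genes with a RefSeq window, by distance from the annotated start in bases (x axis; 1 row per gene, grouped by role). In most of the 21 rows that hold both, CCAAT boxes lie upstream of CHR matches, while in others, such as Cdk1 and Top2a, they are interleaved. Over all matches the medians are -71 bases for CCAAT boxes and -10 bases for CHR, and Mad2l1 and Nuf2 have no match.

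The values were FPKM (fragments per kilobase of gene, scaled to the fragments of the library), 1 per gene and library. Depth is unknown, since the tables give no counts, so no counting interval could be given. The replicates of the in vivo groups carry no number, and first and second library follow the order of the table. Treg and T cell genes were present in every library (Foxp3 at 71.5 to 696 FPKM, Cd3e at 75.5 to 203 FPKM). Kdm2b RNA was present in every cKO library, above both WT libraries in vivo, overlapping with them unstimulated and slightly below them stimulated (in vivo 113 and 110 FPKM for WT, 146 and 125 for cKO; unstimulated 84.9 and 94.9 FPKM for WT, 89.8 and 97.4 for cKO; stimulated 74.5 and 71.7 FPKM for WT, 66.3 and 70.5 for cKO). A whole-gene level that includes exons outside the deleted part checks no label, and no source used here names the deleted exons. WT and cKO are therefore the genotypes as labelled, and every direction between them rests on the labels. Libraries stood apart in the table that holds the cells in vitro. In both WT groups replicate 2 listed more genes at 0 (12379 unstimulated and 13273 stimulated) than any other in vitro library (9102 to 9857). In both cKO groups replicate 1 carried 11.6% and 10.3% of its FPKM in haemoglobin genes, against at most 1.86% in the other in vitro libraries. Where a table gives 0, the gene is written as listed at 0, because the estimate may have failed.

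The mitosis genes summed to 318 and 360 FPKM in the WT libraries in vivo, and to 261 and 345 FPKM in the cKO libraries in vivo. Unstimulated in vitro, the sums were 316 and 141 FPKM in WT and 327 and 271 FPKM in cKO, and stimulated they were 189 and 112 FPKM in WT and 239 and 217 FPKM in cKO. The lowest library of the in vivo table was thus a cKO library, and the lowest library of each in vitro condition was WT replicate 2. The tables were normalized separately, so levels are compared within a table only.

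**Figure D2:**
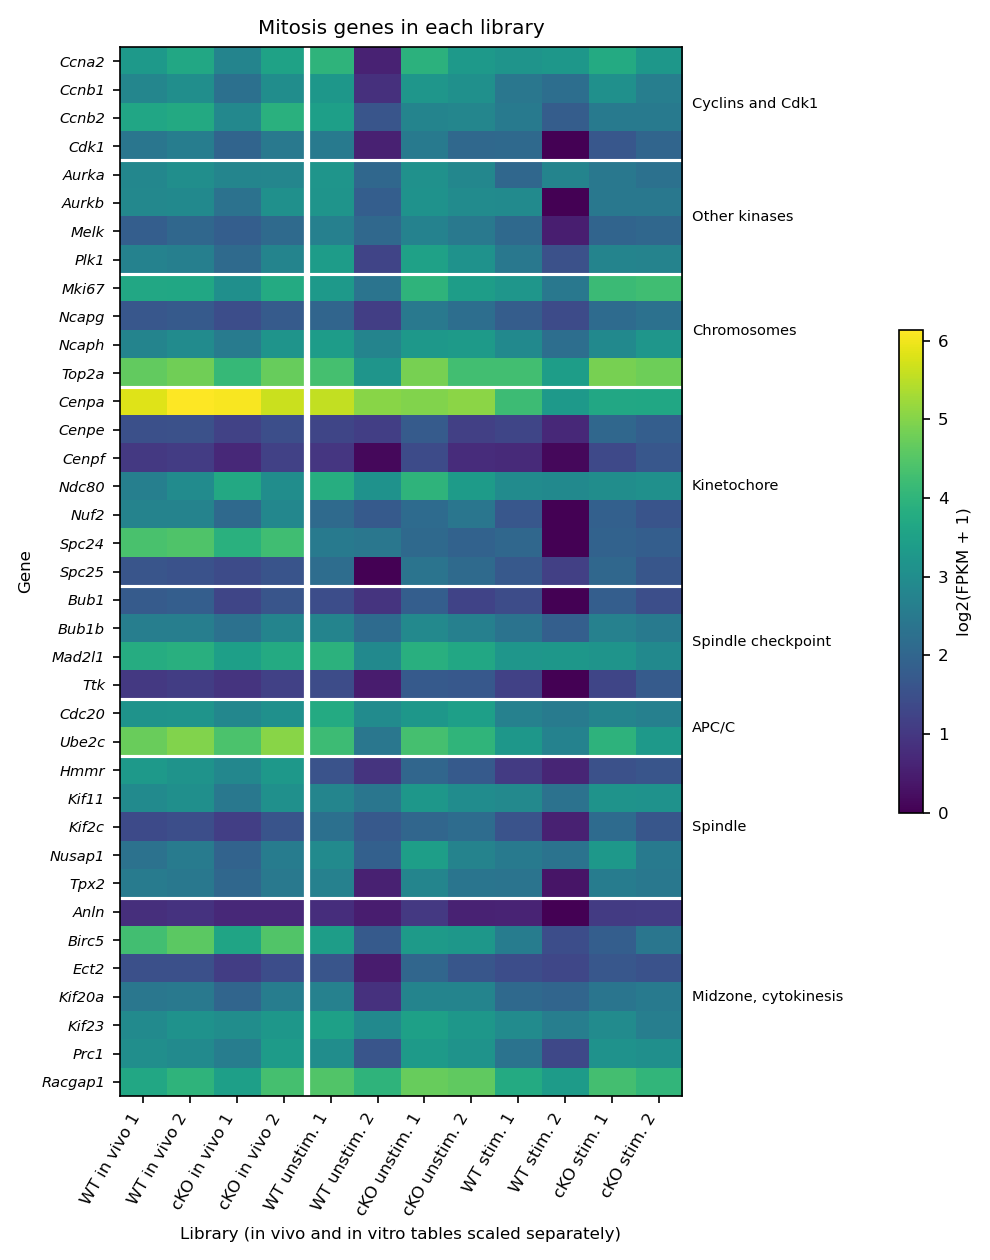
log2(FPKM + 1) of each of the 37 mitosis genes (rows, grouped by role) in each of the 12 libraries (columns; the white line parts the in vivo from the in vitro table). The column of the first cKO library in vivo and both WT replicate 2 columns in vitro are dark down most rows, and Cenpa is the brightest row in vivo.

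Among the members FPKM spanned a wide range within 1 group. In WT Treg in vivo Cenpa, which encodes the histone H3 variant that marks centromeres, was highest at 55.9 and 69.0 FPKM. It was followed by Ube2c, the E2 enzyme of the APC/C, at 25.5 and 30.4 FPKM and Top2a, the topoisomerase that untangles sister chromatids, at 24.4 and 26.6 FPKM, whose libraries overlapped. Next came Birc5, the survivin subunit of the chromosomal passenger complex, at 18.5 and 23.1 FPKM and Spc24, of the Ndc80 kinetochore complex, at 19.5 and 20.9 FPKM, which also overlapped. The lowest were Cenpf at 1.01 and 1.12 FPKM, Ttk at 1.04 and 1.16 FPKM and Anln at 0.77 and 0.86 FPKM. In stimulated cKO cells the order of the top genes was different: Top2a was highest at 28.1 and 26.6 FPKM, Mki67 (the Ki-67 coat protein of mitotic chromosomes) followed at 17.0 and 17.9 FPKM, and Cenpa was 5th at 11.8 and 11.6 FPKM.

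Replicates of a group differed across the mitosis genes as a body. In unstimulated WT cells, all 37 were lower in replicate 2 than in replicate 1, with a median difference of -0.94 on the log2(FPKM + 1) scale, while the 10501 genes averaging 1 FPKM or more had a median of -0.10 and 58.8% of them were lower. In stimulated WT cells 34 of 37 were lower in replicate 2, with a median of -0.59 against -0.03 for all genes. In vivo, the second cKO library was higher than the first for 35 of 37, with a median of 0.48 against 0.02 for all genes. The other replicate pairs were closer, with medians of 0.09 in WT in vivo, -0.24 in unstimulated cKO and -0.07 in stimulated cKO cells. DNA replication genes differed in the same direction between the same replicates, with medians of -0.61 in unstimulated WT (36 of 39 lower), -0.37 in stimulated WT (33 of 39 lower) and 0.31 in cKO in vivo (34 of 39 higher).

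These gaps were uneven among members. Cdk1 was 4.66 and 0.47 FPKM in the unstimulated WT replicates, and was listed at 0 in stimulated WT replicate 2. Ccna2, the cyclin of S phase and mitotic entry, was 14.9 and 0.50 FPKM in the unstimulated WT replicates but 8.05 and 8.47 FPKM in the stimulated ones. Ttk, Bub1, Nuf2, Spc24, Aurkb and Anln were also listed at 0 in stimulated WT replicate 2, and Spc25 in unstimulated WT replicate 2. No member was listed at 0 in any other library. These values enter the differences below, except that of Anln, which was too low to be tested in vitro.

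**Figure D3:**
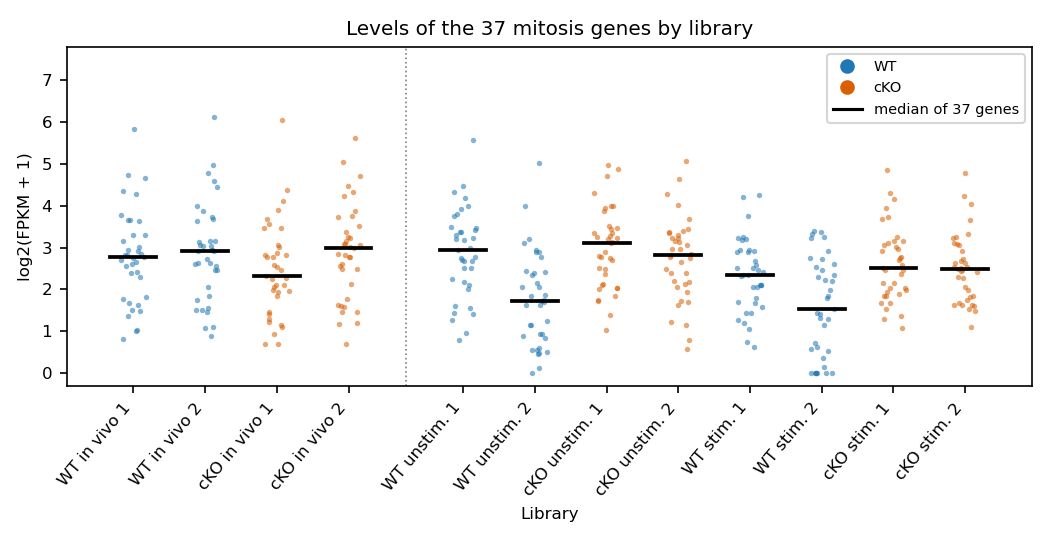
Levels of the 37 mitosis genes (points) and their median (line) in each library on the log2(FPKM + 1) scale, WT in blue and cKO in orange; the dotted line parts the in vivo and in vitro tables. Medians run from 2.32 to 3.0 in vivo, with the first cKO library lowest, and from 1.53 to 3.10 in vitro, with both WT replicate 2 libraries lowest.

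The first comparison asks how the mitosis genes of Treg taken directly from the mouse differ between genotypes. Here and in later comparisons, a higher or lower mean refers to the mean of log2(FPKM + 1). Its direction can differ from that of the mean FPKM. The members tested in vivo were the 36 averaging 1 FPKM or more. Of these, 31 had a lower mean in cKO (53.1% of all genes did) and 5 a higher one. Their median difference was -0.18 on the log2(FPKM + 1) scale against -0.02 over the 10415 genes tested. None was called (limma, a p-value below 0.05 after Benjamini-Hochberg adjustment across every tested gene), where 0.374% of all genes were, and none had an unadjusted p under 0.05, where 13% of all genes did. Without overlap between the 2 groups, 7 members were lower in cKO (25.8% of all genes) and 1 was higher (21.5%).

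Spc24 was 19.5 and 20.9 FPKM in WT and 13.9 and 17.9 FPKM in cKO. Both cKO libraries were below both WT libraries, a difference of -0.34 (SE 0.14, limma adjusted p = 0.390). Ndc80, which encodes the microtubule-binding partner of Spc24 in the same complex, went the other way, at 5.28 and 6.72 FPKM in WT and 11.9 and 6.99 FPKM in cKO, a difference of 0.55 (SE 0.24, adjusted p = 0.400). It was the single member for which the first cKO library was the highest of the 4. Bub1, a checkpoint kinase, was 2.41 and 2.58 FPKM in WT and 1.44 and 2.08 FPKM in cKO, with the groups apart (-0.35, SE 0.17, adjusted p = 0.432).

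Mki67 was 11.7 and 11.5 FPKM in WT and 7.31 and 12.4 FPKM in cKO, so that the cKO libraries lay on both sides of the WT libraries (-0.25, adjusted p = 0.638). Top2a was 24.4 and 26.6 FPKM in WT and 16.3 and 25.1 FPKM in cKO, with the first cKO library below both WT libraries and the second between them (-0.32, adjusted p = 0.519). Ccnb1, cyclin B1, was 6.07 and 7.15 FPKM in WT and 3.77 and 7.05 FPKM in cKO (-0.29, adjusted p = 0.629), and Cdk1 was 4.27 and 5.08 FPKM in WT and 2.92 and 4.61 FPKM in cKO (-0.27, adjusted p = 0.582). The first cKO library was the lowest of the 4 for 33 of the 37 genes, and the second cKO library the highest for 19. Without the first cKO library, the median of the tested members was 0.09, with 25 above 0, and without the second it was -0.40, with 15 members called, 14 of them lower in cKO, where 19.2% of all genes were called. In each of these fits the cKO group is 1 library, whose spread is taken from the 2 WT libraries alone. The in vivo comparison therefore changed direction with the cKO library that was kept.

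By role, no gene was called. The mean of log2(FPKM + 1) was lower in cKO for all 4 genes of Cdk1 and its cyclins (median -0.30). It was also lower for all 5 spindle genes (-0.19), all 4 chromosome genes (-0.17) and all 4 checkpoint genes (-0.16). For the chromosome gene Ncaph, the mean FPKM was higher in cKO (6.275 in WT and 6.405 in cKO). The midzone and cytokinesis genes were divided, 3 above and 3 below 0 (median -0.07). The other pathway lists had no called gene in vivo, with medians of -0.11 for 63 tested further M phase genes, -0.19 for 39 DNA replication genes, -0.05 for 21 genes of the DREAM, B-MYB, FOXM1 and E2F regulators, 0.11 for 15 core APC/C genes, -0.04 for 9 cohesin genes and -0.00 for 11 tested CDK inhibitor and quiescence genes. Markers of other cell types were summed in the same libraries. The 15 B cell markers summed to 82.7 and 104 FPKM in WT and 32.2 and 49.3 FPKM in cKO, and all 12 tested had a lower mean in cKO, 2 of them called. The 15 myeloid markers summed to 149 and 161 FPKM in WT and 120 and 162 FPKM in cKO, lowest in the first cKO library and with the groups overlapping. The part of these cells in the mitosis genes was not tested.

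The same question was then put to the cultured cells without stimulation. Of 35 members tested in vitro, 32 had a higher mean in unstimulated cKO than in unstimulated WT cells (53% of all genes did) and 3 a lower one, with a median of 0.53 against 0.02 over the 10710 genes tested. None was called by limma, where 0.0747% of all genes were, and none had an unadjusted p under 0.05, where 6.56% of all genes did. In 10 members both cKO libraries were above both WT libraries (17.8% of all genes), and Spc24 was the 1 member with both below (16.6% of all genes).

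Mki67 was 8.84 and 4.11 FPKM in unstimulated WT and 14.8 and 9.60 FPKM in unstimulated cKO, with every cKO value above every WT value (0.87, SE 0.38, adjusted p = 0.765). Ncapg, a condensin I subunit, was 3.01 and 1.21 FPKM in WT and 4.58 and 3.63 FPKM in cKO (0.77, SE 0.35, adjusted p = 0.779). Racgap1, the GTPase-activating subunit of centralspindlin, was 21.1 and 14.9 FPKM in WT and 25.0 and 23.8 FPKM in cKO (0.44, SE 0.22, adjusted p = 0.826), and here too the groups did not overlap. Prc1, which bundles midzone microtubules, was 6.99 and 2.07 FPKM in WT and 9.19 and 7.88 FPKM in cKO (0.94, SE 0.48, adjusted p = 0.826).

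In other members WT replicate 1 lay among or above the cKO values and replicate 2 below them. Top2a was 19.1 and 8.20 FPKM in WT and 28.2 and 18.3 FPKM in cKO (0.81, adjusted p = 0.831). Ccnb1 was 8.45 and 0.80 FPKM in WT and 8.27 and 7.41 FPKM in cKO (1.10, adjusted p = 0.871), and Cdk1 was 4.66 and 0.47 FPKM in WT and 4.68 and 3.17 FPKM in cKO (0.75, adjusted p = 0.948). Without unstimulated WT replicate 2 the median of the members was -0.044, Ccnb1 was at -0.10 and Cdk1 at -0.22; without unstimulated WT replicate 1 the median was 1.17. Mki67 stayed above 0 with any single library left out, at 0.40 to 1.34. WT replicate 2 was the lowest of the 4 unstimulated libraries for 35 of the 37 genes.

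The genotypes were compared in the same way under stimulation. Of 35 tested members, 32 had a higher mean in stimulated cKO than in stimulated WT cells (44.9% of all genes did), with a median of 0.60 against -0.05 over all genes, and 3 a lower mean. None was called by limma (0.0187% of all genes), and 5 had an unadjusted p under 0.05, all higher in cKO, where 14.1% of all genes had one and 4.33% had one with a higher mean. In 22 members both cKO libraries were above both WT libraries (18.5% of all genes), and in 1, Mad2l1, both were below (29.8% of all genes).

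Mki67 was 8.29 and 4.49 FPKM in stimulated WT and 17.0 and 17.9 FPKM in stimulated cKO. The lower cKO value was above the higher WT value, and the difference was 1.37 (SE 0.38, adjusted p = 0.193), the largest among the tested members. Cenpe, the kinesin that moves chromosomes to the spindle equator, was 1.42 and 0.64 FPKM in WT and 3.12 and 2.57 FPKM in cKO (0.95, SE 0.35, adjusted p = 0.285). Racgap1 was 12.5 and 9.36 FPKM in WT and 18.6 and 15.4 FPKM in cKO (0.60, SE 0.22, adjusted p = 0.289).

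Prc1 was 4.0 and 1.5 FPKM in WT and 7.68 and 7.32 FPKM in cKO (1.26, SE 0.48, adjusted p = 0.298), and Top2a 18.3 and 9.56 FPKM in WT and 28.1 and 26.6 FPKM in cKO (0.99, SE 0.41, adjusted p = 0.340). In both the groups stood apart. Ccnb1 was 4.34 and 3.62 FPKM in WT and 7.42 and 5.18 FPKM in cKO (0.54, adjusted p = 0.747). Cdk1 was 3.28 FPKM and listed at 0 in WT and 2.19 and 2.97 FPKM in cKO (0.78, adjusted p = 0.687), and its difference was -0.27 without stimulated WT replicate 2.

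The median of the members stayed above 0 when any single library was left out, from 0.25 to 0.84, and was 0.25 without stimulated WT replicate 2. Mki67 stayed between 0.99 and 1.75. Without stimulated WT replicate 1, 1 member was called, where 1.84% of all genes were. In vitro, a group reduced to 1 library is assumed to vary like the other groups. Other members differed little between genotypes. Cdc20 was 5.45 and 4.83 FPKM in WT and 5.81 and 5.41 FPKM in cKO (0.11), Kif23, the kinesin subunit of centralspindlin, was 6.75 and 5.12 FPKM in WT and 6.80 and 5.19 FPKM in cKO (0.01), and Aurka, the kinase of the spindle poles, was 3.13 and 5.77 FPKM in WT and 4.48 and 3.87 FPKM in cKO (-0.03). In these 3 the libraries overlapped. Mad2l1, the checkpoint protein that holds Cdc20, was 8.34 and 8.42 FPKM in WT and 7.98 and 6.52 FPKM in cKO (-0.19). By role the medians ran from 0.32 for midzone and cytokinesis genes and 0.38 for APC/C partners to 0.73 for spindle genes and for the other kinases and 0.80 for chromosome genes.

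Averaged over both conditions in vitro, 34 of 35 tested members had a higher mean in cKO (48% of all genes did), with a median of 0.59 against -0.01 over all genes. None was called (1.08% of all genes), and 9 had an unadjusted p under 0.05, all higher in cKO, where 16.2% of all genes had one and 6.5% had one with a higher mean. The smallest adjusted p was that of Mki67, at 0.107 for a difference of 1.12 (SE 0.27), and 0.0461 with the replicate number as a block. It was 0.348 when the same-numbered libraries of a genotype were averaged over both conditions and counted once. Racgap1 (0.52, SE 0.16, adjusted p = 0.172), Prc1 (1.10, SE 0.34, adjusted p = 0.177) and Top2a (0.90, SE 0.29, adjusted p = 0.197) followed, and Ccnb1 (0.82, adjusted p = 0.438) and Cdk1 (0.77, adjusted p = 0.549) had wider errors. With same-numbered libraries counted once, the limma adjusted p was 0.422 for Racgap1, 0.425 for Prc1 and 0.441 for Top2a. It was 0.560 for Ccnb1 and 0.703 for Cdk1. The 9 unadjusted p-values above come from the fit that treats all libraries as separate. Without unstimulated WT replicate 1, which leaves that group 1 library, 3 members were called, where 0.943% of all genes were, Ccnb1 among them at 1.42 (adjusted p = 0.0368). With both WT replicate 2 libraries left out, Cdk1 was at -0.24. Cenpa alone had a lower mean of log2(FPKM + 1) in cKO, at -0.19 (SE 0.21).

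Among the other pathway lists no gene was called for genotype in vitro. Over both conditions the median was 0.40 for 61 tested further M phase genes, 0.17 for 39 DNA replication genes, 0.12 for 21 genes of the DREAM, B-MYB, FOXM1 and E2F regulators, 0.03 for 9 cohesin genes, -0.09 for 15 core APC/C genes and -0.21 for 12 CDK inhibitor and quiescence genes. Mybl2, which encodes B-MYB, was 2.55 FPKM and listed at 0 in stimulated WT and 3.19 and 2.59 FPKM in stimulated cKO. Foxm1 was 4.29 and 5.42 FPKM in stimulated WT and 6.01 and 3.51 FPKM in stimulated cKO, with the groups overlapping.

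Other cell types' genes differed between the same libraries. The 15 B cell markers summed to 51.0 and 62.5 FPKM in unstimulated WT, 267 and 279 FPKM in unstimulated cKO, 65.7 and 57.7 FPKM in stimulated WT and 217 and 207 FPKM in stimulated cKO. All 14 tested were higher in cKO in both conditions, and 11 were called over both (1.08% of all genes). Of 6 tested germinal centre B and plasma cell markers, 3 had a higher and 3 a lower mean in cKO over both conditions, with 0 called. Myeloid markers summed to 120 and 156 FPKM in unstimulated WT, 453 and 178 FPKM in unstimulated cKO, 107 and 123 FPKM in stimulated WT and 328 and 140 FPKM in stimulated cKO. All 11 tested had a higher mean in cKO over both conditions, and 1 was called (1.08% of all genes). The erythroid markers, summed over 16 genes, ran from 20.5 to 1699 FPKM in the WT libraries and from 5116 to 51235 FPKM in the cKO libraries. Over both conditions in vitro, 9 of 10 tested erythroid markers had a higher mean in cKO and 1 a lower one, with a median of 3.02. Of these, 3 were called, all higher in cKO (1.08% of all genes were called). The erythroid progenitor gene Klf1, too low to be tested, was at most 0.84 FPKM in any library. In unstimulated cKO the replicates had erythroid sums of 51235 and 5116 FPKM beside mitosis sums of 327 and 271 FPKM. With haemoglobin genes removed and the libraries rescaled, the median difference of the members was 0.56 unstimulated and 0.64 stimulated. The 11 Treg markers measured summed to 1627 and 1744 FPKM in unstimulated WT and 1350 and 1486 FPKM in unstimulated cKO. Stimulated, they summed to 2618 and 2966 FPKM in WT and 2116 and 2171 FPKM in cKO. Over both conditions 6 of 11 tested were lower in cKO, 1 of them called (1.08% of all genes), and 5 were higher. The part of Treg, B cells, myeloid cells and erythroid cells in the mitosis genes was not tested.

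**Figure D4:**
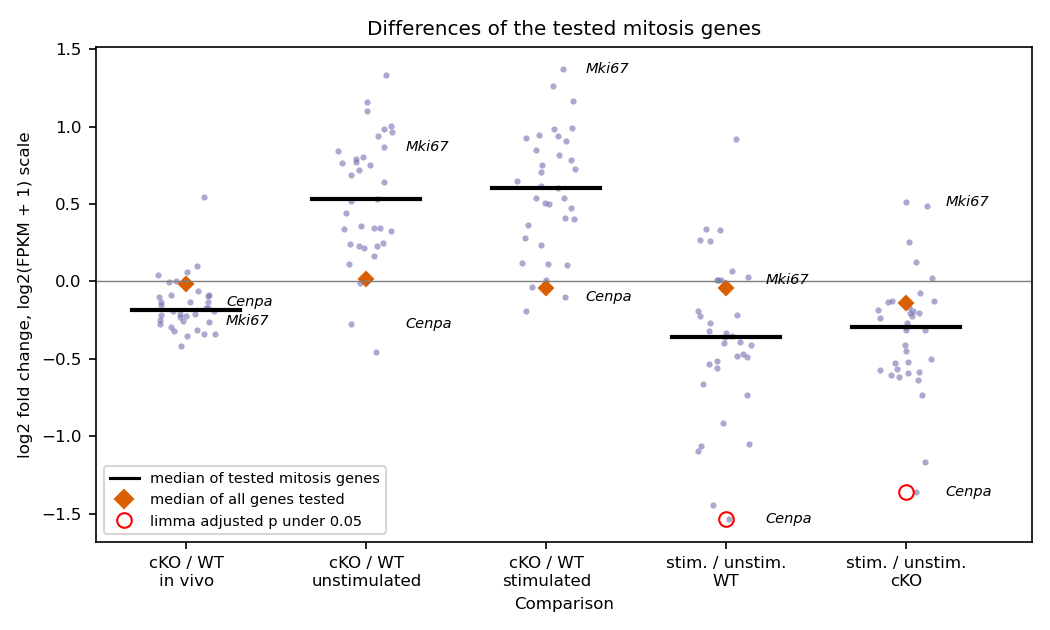
Differences of the tested mitosis genes (points; 36 in vivo, 35 in vitro) on the log2(FPKM + 1) scale in 5 comparisons, with their median (line) and the median of all genes tested (diamond); red circles mark a limma adjusted p under 0.05. The line lies at -0.18 in vivo and at 0.53 and 0.60 for genotype in vitro, and Cenpa is the circled gene in both stimulation comparisons.

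The design also asks what stimulation did to the mitosis genes of each genotype. The main change was in Cenpa, which fell under stimulation in both. It was 46.4 and 31.7 FPKM in unstimulated and 17.4 and 9.02 FPKM in stimulated WT cells, and 30.5 and 32.6 FPKM in unstimulated and 11.8 and 11.6 FPKM in stimulated cKO cells. All 4 stimulated libraries were below all 4 unstimulated ones. The difference was -1.54 in WT (SE 0.30, limma adjusted p = 0.0434), -1.36 in cKO (SE 0.30, adjusted p = 0.0467) and -1.45 over both (SE 0.21, adjusted p = 0.00572). The call within 1 genotype sat near the threshold: it held in 11 of 23 alternatives in WT (adjusted p 0.00921 to 0.176) and in 13 of 23 in cKO (0.00404 to 0.559), while that over both held in 21 of 22 (0.00133 to 0.0863). In WT it was lost without stimulated WT replicate 2, either unstimulated WT replicate or any single cKO library, and in cKO without any single cKO library; the difference itself stayed between -1.97 and -1.10 in WT and between -1.42 and -1.23 in cKO. The direction held under each scaling tried.

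Cenpa was the only member called for stimulation in WT, in cKO or over both genotypes. Over both, 12.4% of all genes were called. In WT 25 of 35 tested members had a lower mean of log2(FPKM + 1) after stimulation (54.2% of all genes did) and 10 a higher one. The median was -0.36 against -0.04 over all genes. The 10 included Ccnb1, whose mean FPKM was lower after stimulation (4.62 unstimulated and 3.98 stimulated). The call rate was 2.43% over all genes, and 4 members, all lower, had an unadjusted p under 0.05, where 18.7% of all genes did. In 7 members both stimulated WT libraries were below both unstimulated ones (22.9% of all genes) and in none above (18.8%). In cKO 30 had a lower mean (63.3% of all genes did) and 5 a higher one, with a median of -0.29 against -0.14 over all genes, and 4.58% of all genes were called. No other member of cKO cells had an unadjusted p under 0.05, where 21.4% of all genes did. Over both genotypes 29 of 35 members had a lower mean (61% of all genes did), with a median of -0.35 against -0.10, and 6 members, all lower, had an unadjusted p under 0.05 (30.7% of all genes). In cKO 21 members were lower without overlap (44.1% of all genes) and 2 higher (20.7%). Other scalings moved the median of all genes in cKO up by 0.11 to 0.13 and in WT by 0.03 to 0.10.

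Racgap1 was 21.1 and 14.9 FPKM unstimulated and 12.5 and 9.36 FPKM stimulated in WT (-0.66, SE 0.22, adjusted p = 0.169), and 25.0 and 23.8 FPKM unstimulated and 18.6 and 15.4 FPKM stimulated in cKO (-0.50, adjusted p = 0.247). Its stimulated and unstimulated libraries did not overlap in either genotype, and over both the adjusted p was 0.0501 (-0.58, SE 0.16), or 0.0192 with a block for each genotype and replicate number. Cdc20, the activator of the APC/C, was 12.5 and 6.72 FPKM unstimulated and 5.45 and 4.83 FPKM stimulated in WT (-0.73, adjusted p = 0.217), and 8.43 and 9.91 FPKM against 5.81 and 5.41 FPKM in cKO (-0.62, adjusted p = 0.258). Ndc80 over both genotypes was at -0.58 (SE 0.21, adjusted p = 0.102), and Cdc20 at -0.68 (SE 0.20, adjusted p = 0.0630, or 0.0411 with that block).

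Spc24 was 4.74 and 4.36 FPKM unstimulated and 3.16 FPKM and listed at 0 stimulated in WT (-1.44, SE 0.58, adjusted p = 0.232), a difference that rests in part on the 0 and was -0.41 without stimulated WT replicate 2. In cKO it was 3.27 and 2.83 FPKM against 2.82 and 2.55 FPKM. Mad2l1 in cKO was 13.6 and 11.8 FPKM unstimulated and 7.98 and 6.52 FPKM stimulated (-0.74, SE 0.32, adjusted p = 0.238).

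The proliferation markers Mki67 and Top2a lay near 0 for stimulation in WT cells. Mki67 was 8.84 and 4.11 FPKM unstimulated and 8.29 and 4.49 FPKM stimulated in WT, nearly the same pair of values (0.01, adjusted p = 0.992). In cKO it was 14.8 and 9.60 FPKM unstimulated and 17.0 and 17.9 FPKM stimulated, with both stimulated libraries higher (0.51, SE 0.38, adjusted p = 0.497). Top2a was 19.1 and 8.20 FPKM against 18.3 and 9.56 FPKM in WT (0.07, adjusted p = 0.949), and 28.2 and 18.3 FPKM against 28.1 and 26.6 FPKM in cKO (0.25, adjusted p = 0.790). Ccnb1 (0.27 in WT, adjusted p = 0.856; -0.29 in cKO, adjusted p = 0.852) and Cdk1 (-0.48 in WT, adjusted p = 0.777; -0.45 in cKO, adjusted p = 0.800) had overlapping libraries in WT. Without unstimulated WT replicate 2 the WT median was -0.82, with no member above 0, and without unstimulated WT replicate 1 it was 0.20. By role, the kinetochore genes had the lowest WT median (-0.81), followed by the other kinases (-0.68), while chromosome genes were at 0.02 in WT and 0.06 in cKO.

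**Figure D5:**
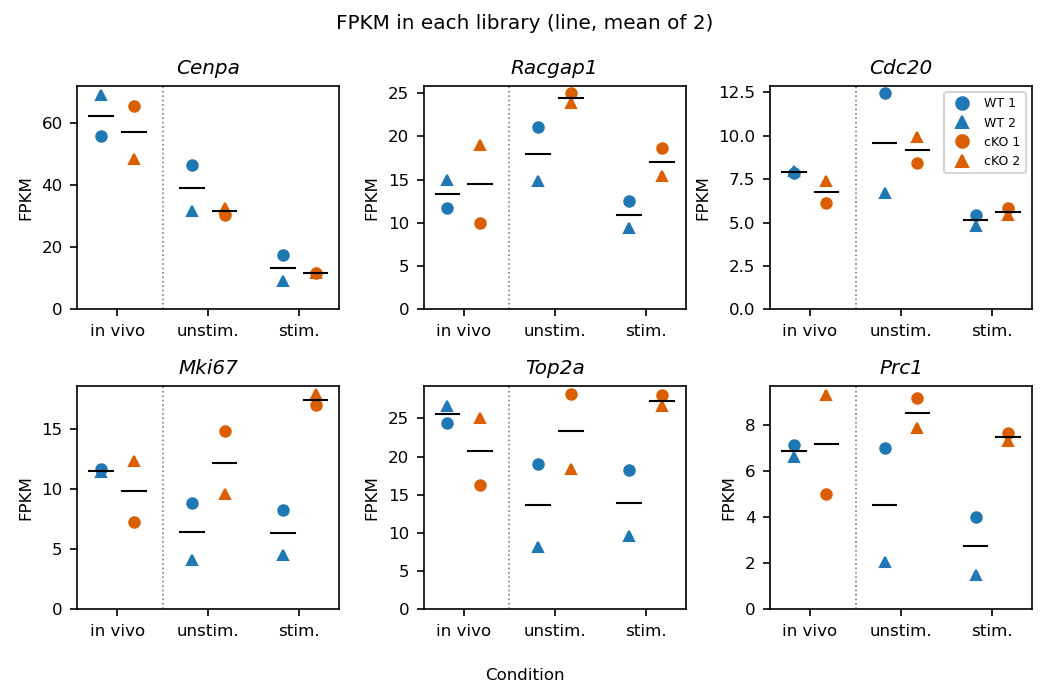
FPKM of Cenpa, Racgap1, Cdc20, Mki67, Top2a and Prc1 in every library (circles, first library or replicate 1; triangles, second library or replicate 2; WT blue, cKO orange; lines, mean of the 2 libraries), by condition; the dotted line parts the separately normalized tables. Cenpa is at 30.5 to 46.4 FPKM in the unstimulated and at 9.02 to 17.4 FPKM in the stimulated libraries, and Mki67 of stimulated cKO cells, at 17.0 and 17.9 FPKM, lies above both stimulated WT libraries.

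Whether stimulation acted differently in the genotypes was tested by the interaction of genotype and stimulation. No member was called, nor any of the 10710 genes (0% of all genes; 380 genes, or 3.55%, none of them a member, had an unadjusted p under 0.05 with limma). The members' median was 0.12 against -0.08 over all genes, with 21 above (41.5% of all genes) and 14 below 0. The smallest p-values among members were those of Spc24 (1.31, SE 0.81), Cenpe (0.71, SE 0.49), Kif2c (0.71, SE 0.57) and Mad2l1 (-0.55, SE 0.45), each with an adjusted p of 0.999. Mki67 was at 0.50 (SE 0.54), Top2a at 0.18 (SE 0.59), Ccnb1 at -0.56 (SE 0.92) and Cdk1 at 0.03 (SE 1.10). With errors of this size, a difference of response of the order of 1 on the log2 scale could not be told from 0 in most members.

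Genes around the mitosis genes in the cell cycle fell with stimulation in small number. Over both genotypes, Cdkn2d, which encodes the CDK4 and CDK6 inhibitor p19, fell by 1.71 (adjusted p = 0.000668), Cdkn1b, which encodes the CDK inhibitor p27, fell by 0.73 (adjusted p = 0.00720) and Klf2, a T cell quiescence factor, fell by 0.78 (adjusted p = 0.0158). These were 3 of 12 CDK inhibitor and quiescence genes, where 12.4% of all genes were called. Of 61 further M phase genes 3 were called, all lower: Cdc25b, the phosphatase that activates Cdk1, by -1.23 (adjusted p = 0.0119), Cks1b, by -0.91 (adjusted p = 0.0119), and Pttg1, securin, by -0.74 (adjusted p = 0.0216). Of 39 DNA replication genes 2 were called, Mcm6 at -0.66 (adjusted p = 0.0135) and Cdt1 at -0.72 (adjusted p = 0.0337), and of 15 core APC/C genes 1, Anapc16 at -0.51 (adjusted p = 0.0471). None was called among 21 genes of the DREAM, B-MYB, FOXM1 and E2F regulators (4 at an unadjusted p under 0.05, all lower) or among 9 cohesin genes (1 at an unadjusted p under 0.05, higher). Most members of each list were thus not called in either direction, as with the mitosis genes.

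Some members share exon bases with a neighbour on the other strand, so that reads of the 2 genes cannot be told apart if the counting did not use strand, which no source used here states. The shared length was 911 exon bases for Prc1 (with Rccd1), 1271 for Kif20a (with Cdc23), 944 for Ncapg (with Lcorl), 592 for Ube2c (with Tnnc2), 510 for Ccna2 (with Exosc9), 172 for Nusap1 (with Oip5), 156 for Plk1 (with Gm44985) and 53 for Cdc20 (with Elovl1) in the GENCODE annotation of GRCm38. Top2a shares 122 of its 9013 exon bases with Gm23451, a small nucleolar RNA gene on the same strand, where use of strand cannot part the reads. Cenpa (chr5:30666777-30674830, plus strand), Mki67 (chr7:135689784-135716361, minus strand) and Racgap1 (chr15:99620496-99651656, minus strand) share none. Low genes were left out of some tests: Anln, an anillin scaffold of the contractile ring, at a mean of 0.72 FPKM in vivo and 0.683 FPKM in vitro, and Cenpf in vitro at 0.986 FPKM. The nearest tested genes were Cenpf in vivo at 1.01 FPKM and Ttk in vitro at 1.47 FPKM. Cenpf was 0.66 and 0.10 FPKM in stimulated WT and 1.57 and 2.18 FPKM in stimulated cKO cells, and Anln was 0.53 FPKM and listed at 0 in WT and 1.10 and 1.14 FPKM in cKO.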

How the data were processed

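The authors deposited FPKM per gene and library in 2 tables, in vivo and in vitro; HISAT2 2.2.1, StringTie 2.1.1 and the builds mm10 and hg19 are named, with no role, per the submitters' processing notes. In vivo symbols came from Entrez numbers through RefSeq (16196 of 16232). Groups came from sample titles; 4 further per-sample columns were not used. The members and lists were chosen with earlier results of these data known. Each table was tested alone on log2(FPKM + 1) with limma 3.58.1 (R 4.3.3; eBayes with a trend; two-sided tests) on the genes averaging 1 FPKM or more, the 8 in vitro samples in 1 fit. A gene was called below 0.05 after Benjamini-Hochberg adjustment. This scale understates changes of low genes. Fold changes were named for called members, smallest p first, or for the 4 of smallest p, and for Mki67, Top2a, Ccnb1 and Cdk1. Count models were not applied to FPKM; low values gave no whole-read steps, and depth is unknown. The fit was tested on simulated data. Alternatives covered pseudocount, filter, scaling, variance model, blocks and libraries left out.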

Additional observations from a re-analysis of the deposited data

Results flagged for a closer look

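In 4 cases all cKO libraries of one condition were above their WT libraries while both in vivo cKO libraries were below both in vivo WT libraries. The share of all genes with such a reversal was not computed. Without overlap, 7 of 36 tested members were lower in vivo (25.8% of all genes). In vitro 10 of 35 were higher unstimulated (17.8%) and 22 of 35 stimulated (18.5%). The cases were picked for these opposite directions, which fixes the sign of each value below. The cKO to WT difference in vitro exceeded that in vivo by 1.00 on the log2(FPKM + 1) scale for Ect2 unstimulated and by 0.45 for Ect2 stimulated. It did so by 1.29 for Bub1 stimulated, where 1 WT library is listed at 0, and by 1.11 for Cenpe stimulated. The differences were not tested, since the tables were normalized separately.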

How the results depend on the processing

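Depth is unknown and each group has 2 libraries, which limits every comparison. Of the results on members called and on medians, 291 values under other settings stayed within 1.5 times the reported count or 1 SD of the reported median and 41 did not. The SD was that of the members' median level between replicates, 0.35 in vivo and 0.53 in vitro. A median could thus change direction and still count as within 1 SD. The in vivo genotype median did so, at -0.18 as reported and 0.09 without the first cKO library. Of single-gene values, 1151 kept their direction and side of the threshold, 26 newly passed it, 23 no longer did and 43 changed direction. The causes were not tested, beyond the libraries named. For some fits with a library left out, the share of all genes called is given in the Results. The other counts of called members below are printed without that share. Such counts do not show whether mitosis genes were called more often than other genes.

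With 1 library left out at a time, called members ranged from 0 to 15 for genotype in vivo, from 0 to 1 for genotype stimulated, from 0 to 3 for genotype over both in vitro conditions, from 0 to 5 for stimulation in WT, from 0 to 1 in cKO and from 1 to 6 over both genotypes. The members' median ranged from -0.044 to 1.17 for genotype unstimulated and from -0.82 to 0.20 for stimulation in WT. Genotype in vivo ranged from -0.60 to 0.090 for Mki67 and from -0.67 to 0.085 for Ccnb1. Genotype unstimulated ranged from -0.10 to 2.30 for Ccnb1 and from -0.22 to 1.72 for Cdk1, and stimulated from -0.27 to 1.83 for Cdk1. Stimulation in WT ranged from -0.46 to 0.48 for Mki67, -0.49 to 0.63 for Top2a, -0.93 to 1.47 for Ccnb1 and -1.53 to 0.57 for Cdk1, in cKO from -0.046 to 0.55 for Top2a, and over both from -0.12 to 0.44 for Top2a, -0.61 to 0.59 for Ccnb1 and -0.99 to 0.058 for Cdk1. The interaction ranged from -0.38 to 0.75 for Top2a, -1.76 to 0.64 for Ccnb1 and -1.02 to 1.08 for Cdk1.

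With both WT replicate 2 libraries left out, the genotype median unstimulated was -0.044, with Ccnb1 at -0.10 and Cdk1 at -0.22; Cdk1 was at -0.27 stimulated and -0.24 over both conditions; stimulation in WT was -0.083 for Mki67, -0.060 for Top2a and -0.82 for Ccnb1; the interaction was 0.53 for Ccnb1 and -0.047 for Cdk1; and 4 members were called for stimulation in cKO and 9 over both genotypes. With both cKO replicate 1 libraries left out, 0 were called for stimulation in WT, 0 in cKO and 0 over both. For stimulation in WT 0 members were called with a pseudocount of 0.1, 0 with no filter, 0 without the trend and 0 with only the groups compared. In cKO 0 were called with a pseudocount of 0.1, 0 with no filter, 0 with median-of-ratios scaling, 0 rescaled to a common sum and 0 without the trend, but 4 with only the groups compared. Over both genotypes 2 were called at a mean of at least 5 FPKM and 2 with robust eBayes. Stimulation of Ccnb1 over both genotypes, -0.01 as reported, was 0.11 with a pseudocount of 0.1, 0.068 with median-of-ratios scaling, 0.073 with quantile normalization, 0.10 rescaled to a common sum and 0.10 with haemoglobin genes removed as well.

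With the replicate block in the in vitro fit, 1 member, Mki67, was called for genotype over both conditions and 2 for stimulation over both genotypes. Deviations of same-numbered libraries correlated over 10710 genes at 0.239 in WT and 0.420 in cKO, between the conditions of a genotype, and at -0.138 to 0.0577 across genotypes; the labels do not say what a number stands for, so the fits reported treat the libraries as separate. With a block for each genotype and number, chosen like the averaging of same-numbered libraries after seeing the data, 5 members were called for stimulation over both genotypes. No paired analysis was possible in vivo because the columns carry no replicate number.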
